A study of Mus musculus with 2 samples.

Results

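The cells described here are those of day 2.5 mouse gastruloids that held few transcripts of DNA replication genes and few of mitosis genes at the same time. They numbered 634 of 19294 cells, with 271 of 8707 (3.11%, 95% interval 2.76% to 3.50%) in the library labelled WT and 363 of 10587 (3.43%, 3.09% to 3.79%) in the library labelled Sp5/8dko. The members were selected on their own transcripts. For each cell the share of its UMIs (molecular tags, which let copies of 1 molecule be counted once) was taken from set A, the replication genes Mcm2 to Mcm7, Pcna, Rrm2, Ung and Cdc6, and from set B, the mitosis genes Cdk1, Ccnb1, Ccnb2, Cdc20, Top2a, Mki67, Cenpa, Cenpf, Tpx2 and Ube2c. A cell was a member if both shares were at or under the 25th percentile of its library, and all comparisons are with the other kept cells of that library.

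Gastruloids are aggregates of embryonic stem cells that begin to form germ layers and a body axis in culture. Each aggregate was seeded with about 300 R1 embryonic stem cells in serum-free N2B27 medium, either wild type or lacking the zinc finger transcription factor genes Sp5 and Sp8, and both groups received the GSK3 inhibitor CHIR, which activates Wnt signalling, at 3 µM from day 2 for 12 hours. Aggregates of a genotype were pooled before dissociation, and each genotype had 1 library. With 1 library there is no test between genotypes, and none is given between members and other cells, since the members were chosen on these same transcripts. The 95% intervals given below are exact Poisson, conditional Poisson or binomial intervals that cover counting error only.

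Both deleted genes went against the labels. In the members, Sp5 (chr2:70474923-70477729, mm10) was at 106 CPM (a gene's UMIs scaled to a common total over the summed cells; 92.0 to 121) in the library labelled WT and at 424 CPM (399 to 451) in the library labelled Sp5/8dko, and in the other cells it was at 109 and 480 CPM. Sp8 was at 20.4 CPM (14.7 to 27.6) and 33.1 CPM (26.2 to 41.1) in the members and at 20.8 and 40.3 CPM in the other cells. Which part of either gene was deleted is not given in the sources used here, and a 3′ tag outside the deleted part checks nothing, so the libraries are named throughout by their labels. Kept cells held 97157331 UMIs in the library labelled WT and 97644169 in the library labelled Sp5/8dko, with medians of 10571 and 8637 UMIs and of 3275 and 2884 genes per cell, and 27 cell barcodes occurred among the kept cells of both libraries.

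A dividing cell builds up replication transcripts before and during S phase and mitotic transcripts in G2 and M phase, so a cell poor in both can be in G1, can have left the cycle, or can have been sampled too thinly for either to appear. The primary cilium, a single antenna-like organelle that transmits Hedgehog signals, is built on a centriole in G1 or in cells that have stopped dividing, and it is taken down before mitosis. Its parts are carried by intraflagellar transport (IFT) complexes along microtubules, and the BBSome and the transition zone at its base control which membrane proteins enter.

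The limits that set the members were a share of 0.123% of UMIs for A and 0.128% for B in the library labelled WT, and 0.119% and 0.132% in the library labelled Sp5/8dko. There was no gap at these limits: the highest A share of a member was 0.1229% in the library labelled WT, and the lowest A share above the limit among cells low in B was 0.1232%. In the library labelled Sp5/8dko these values were 0.1191% and 0.1194%. Within 10% of a limit lay 101 and 134 of the members, and 148 and 227 other cells lay within 10% above the limits. A member held a median of 6 UMIs of set A in both libraries, against 18 and 14 in the other cells, and a median of 5 and 6 UMIs of set B, against 19 and 16. In sum, set A stood at 871 CPM in the members and 1671 CPM in the other cells of the library labelled WT, and at 860 and 1628 CPM in the library labelled Sp5/8dko. Set B stood at 756 against 2280 CPM and at 832 against 2259 CPM. These values follow from the choice of the cells. The shares A and B ran against each other across kept cells (Spearman's rho -0.43 and -0.39 over 8707 and 10587 cells, which share a library and a UMI total per cell), and if they were unrelated, 6.25% of cells would lie under both limits.

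**Figure D1:**
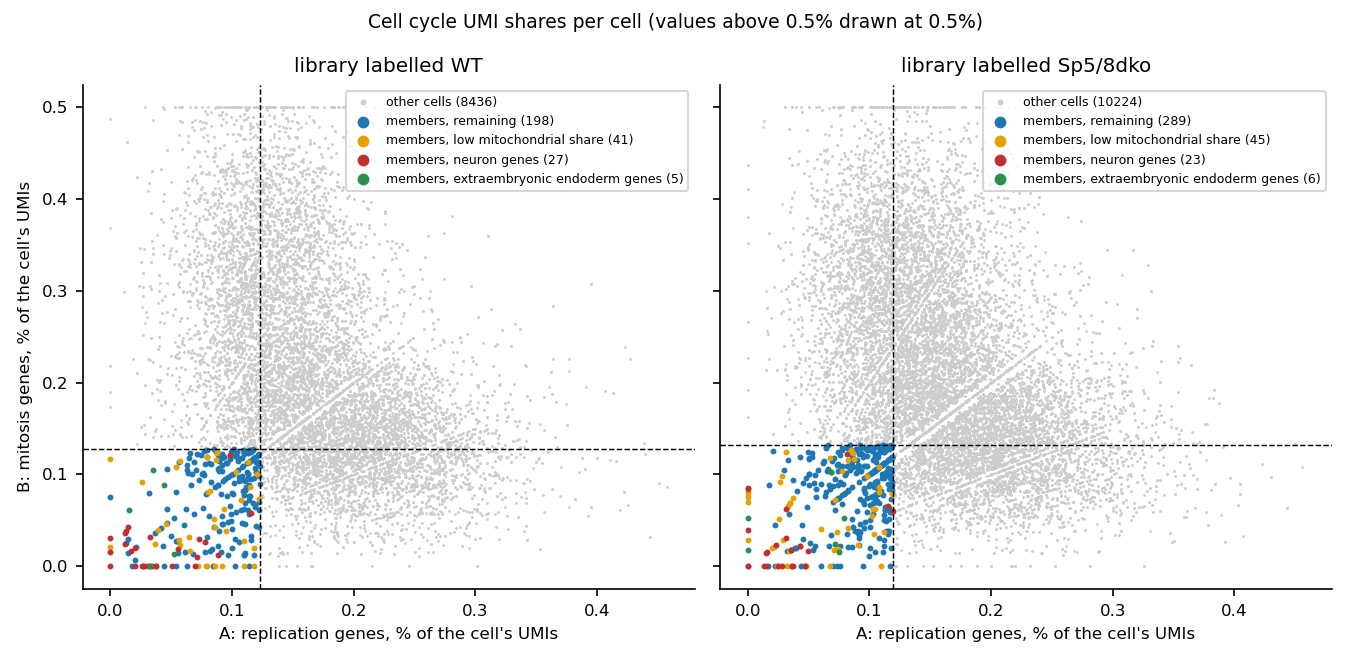
Share of each cell's UMIs from the replication genes (A, x axis, percent) and from the mitosis genes (B, y axis, percent), 1 point per cell and 1 panel per library, with the 25th percentiles as dashed lines, shares above 0.5% drawn at 0.5% and the members coloured by the classes described in the text. The 271 and 363 members fill the lower left corner of a continuous cloud, and no gap separates them from the other cells (grey).

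The members were shallow cells. Their median was 7553 UMIs and 2666 genes in the library labelled WT, against 10667 UMIs and 3291 genes in the other cells, and 6693 UMIs and 2462 genes against 8721 and 2900 in the library labelled Sp5/8dko. With the cells of each library in 5 equal groups by UMI total, 9.64% and 8.74% of the shallowest group were members, and 0.402% and 0.425% of the deepest. When every cell was thinned to 2500 UMIs before the rule was applied, 6.68% and 6.43% of cells were members. At that depth the shares take few values, and every cell tied at a limit passes it. These percentages are therefore not shares of members corrected for depth, and the part of ties was not tested. The median share of mitochondrial UMIs was similar (4.12% and 4.23% in the members, 3.80% and 4.06% in the other cells). Its low end was not: the 5th percentile was 0.105% and 0.232% in the members, against 2.30% and 2.44%. The median share of ribosomal protein genes was also similar (25.1% and 25.8%, against 24.0% and 24.4%). Its 95th percentile was 33.2% and 34.3%, against 27.8% and 28.4%. The part of depth in the differences that follow was not tested as a cause, and values with the other cells weighted to the members' depths are given beside the lists and genes they move most.

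**Figure D2:**
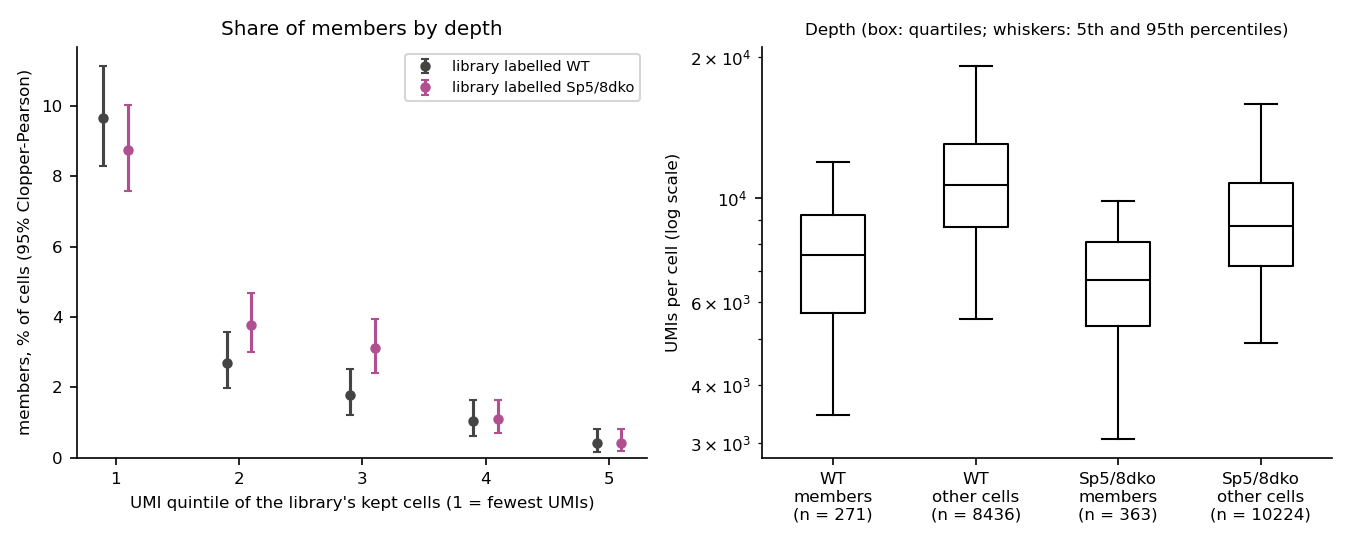
Left, percent of cells that were members (y axis) in 5 equal groups of each library's cells by UMI total (x axis, 1 holds the fewest UMIs), with exact 95% binomial intervals; right, UMIs per cell on a log axis in members and other cells (line, median; box, quartiles; whiskers, 5th and 95th percentiles). The share of members was 9.64% and 8.74% in the shallowest group and 0.402% and 0.425% in the deepest.

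A gene was counted as higher or lower in the members if its log2 ratio of CPM, members over other cells, was at least 0.25 in size with the same sign in both libraries and both intervals left out 0. Of 7714 genes outside sets A and B with a mean of at least 10 CPM, 380 (4.93%) were higher and 309 (4.01%) were lower. The counts of list genes given below stand beside these shares of all genes. With TMM factors in place of totals the numbers were 284 and 568, and with DESeq2 size factors 319 and 415, so the balance of higher and lower genes rests on the scaling. With the other cells weighted to the members' depths 370 were higher and 193 lower, and with members chosen after thinning 114 and 73. Of the 380 higher genes, 60 were under 10 CPM in the other cells of both libraries and passed that minimum only through the members, so nothing is read from their number; of the 309 lower genes, 8 passed only through the other cells. The median log2 ratio over the 12699 genes with a mean of at least 1 CPM was 0.06 and 0.02. Some of the members carried transcripts of other cell types or almost no mitochondrial RNA; they are described further on, and values for the remaining 198 and 289 members are given beside the main ones. Among these, set against the other cells without the same classes, 122 of 7631 genes (1.6%) were higher and 142 (1.86%) lower.

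Ciliary genes as a group stood at nearly the same level in the members as in the other cells. The 108 listed genes together gave 2629 CPM in the members and 2584 CPM in the other cells of the library labelled WT, a log2 ratio of 0.02 (-0.01 to 0.06). In the library labelled Sp5/8dko they gave 2453 and 2527 CPM, a log2 ratio of -0.04 (-0.08 to -0.01). The median log2 ratio over the 104 genes with at least 1 CPM was 0.05 in the library labelled WT, where 59 were higher and 45 lower, and -0.06 in the library labelled Sp5/8dko, where 47 were higher and 57 lower. With TMM factors the medians were -0.03 and -0.12. Of the 68 ciliary genes at 10 CPM or more, 2 were counted as higher and 1 as lower, a share that does not exceed that of all genes. The medians were 0.06 and -0.05 in the remaining members.

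The ciliary level of the members had no fixed place when the cells were split by which of the sets was low. In the library labelled WT the ciliary sum was 2629 CPM in the members, 2659 in the 1906 cells low in A alone, 2534 in the 1906 cells low in B alone and 2571 in the 4624 cells low in neither. In the library labelled Sp5/8dko it was 2453, 2551, 2480 and 2533 CPM. The members ranked second in one library and last in the other. Cells low in A alone had the highest sum in both libraries, and cells low in B alone were under cells low in neither.

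Among the parts of the cilium, the IFT-B genes, whose complex carries cargo towards the tip, had median log2 ratios of 0.07 and -0.04 (13 genes at 10 CPM or more). The IFT-A genes, whose complex works in the return direction, had medians of 0.11 and -0.04 (3 genes), the ciliary motors 0.12 and 0.08 (7 genes) and the BBSome -0.01 and 0.01 (4 genes). Medians were -0.07 and -0.04 for the transition zone (13 genes) and 0.13 and 0.02 for ciliary membrane genes (11 genes). No gene of the motors, the BBSome, the transition zone or the membrane list was counted as higher or lower. The basal body genes, which encode the centriole and its satellites, had medians of -0.01 and -0.22 (17 genes). Their sum was 616 CPM in the members against 647 CPM in the library labelled WT (log2 ratio -0.07, -0.15 to 0.01) and 535 against 626 CPM in the library labelled Sp5/8dko (-0.23, -0.31 to -0.15). Weighted to the members' depths the medians were 0.04 and -0.13.

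Ift27 (chr15:78159463-78174107, on the minus strand), a small GTPase of the IFT-B complex, was the IFT-B gene counted as higher. It was at 49.1 CPM (40.0 to 59.7) in the members and 35.1 CPM in the other cells of the library labelled WT, and at 51.0 CPM (42.5 to 60.8) and 38.9 CPM in the library labelled Sp5/8dko. The log2 ratios were 0.49 (0.19 to 0.77) and 0.40 (0.12 to 0.65). This depended on which UMIs chose the cells: when the UMIs of each cell were split at random into 2 sets, with members chosen on the first and values taken from the second, the ratios were -0.33 and 0.51, and with members chosen after thinning they were 0.14 and 0.12. Wdr35 (chr12:8973892-9028847), an IFT-A subunit also called IFT121, was at 80.8 against 65.5 CPM and at 67.7 against 53.8 CPM, with log2 ratios of 0.31 (0.07 to 0.52) and 0.34 (0.10 to 0.55). Its ratios were 0.05 and 0.06 from the split UMIs and 0.09 and 0.17 after thinning. Under both settings, and at the 30th percentile, no ciliary gene was counted as higher.

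Alms1 (chr6:85587531-85702753), the centrosomal protein altered in Alström syndrome, was the ciliary gene counted as lower. It was at 27.7 against 36.5 CPM and 26.9 against 34.4 CPM, with log2 ratios of -0.38 and -0.34 whose intervals ended just under 0. It was no longer counted at the 20th or 30th percentile, after thinning, in cells of at least 5000 UMIs, with a mitochondrial limit of 5%, without doublets, from the split UMIs, with the other cells weighted by depth, or in the remaining members (-0.31 and -0.27, with intervals that held 0). The other ciliary genes were not counted, among them Ift20, Pcm1 and Kif3a. Ift20, an IFT-B subunit that also acts at the Golgi, was at 110 CPM in the members of both libraries and at 102 and 105 CPM in the other cells. Pcm1, the scaffold of centriolar satellites, was at 144 against 152 CPM (log2 ratio -0.09, -0.26 to 0.08) and at 114 against 148 CPM (-0.37, -0.55 to -0.21). Kif3a, a subunit of the kinesin motor that drives transport to the tip, was at 30.6 against 19.9 CPM (0.63, 0.24 to 0.98) and at 22.9 against 20.7 CPM (0.15, -0.27 to 0.52). Pcm1 and Kif3a thus left the 0 line in 1 library each.

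**Figure D3:**
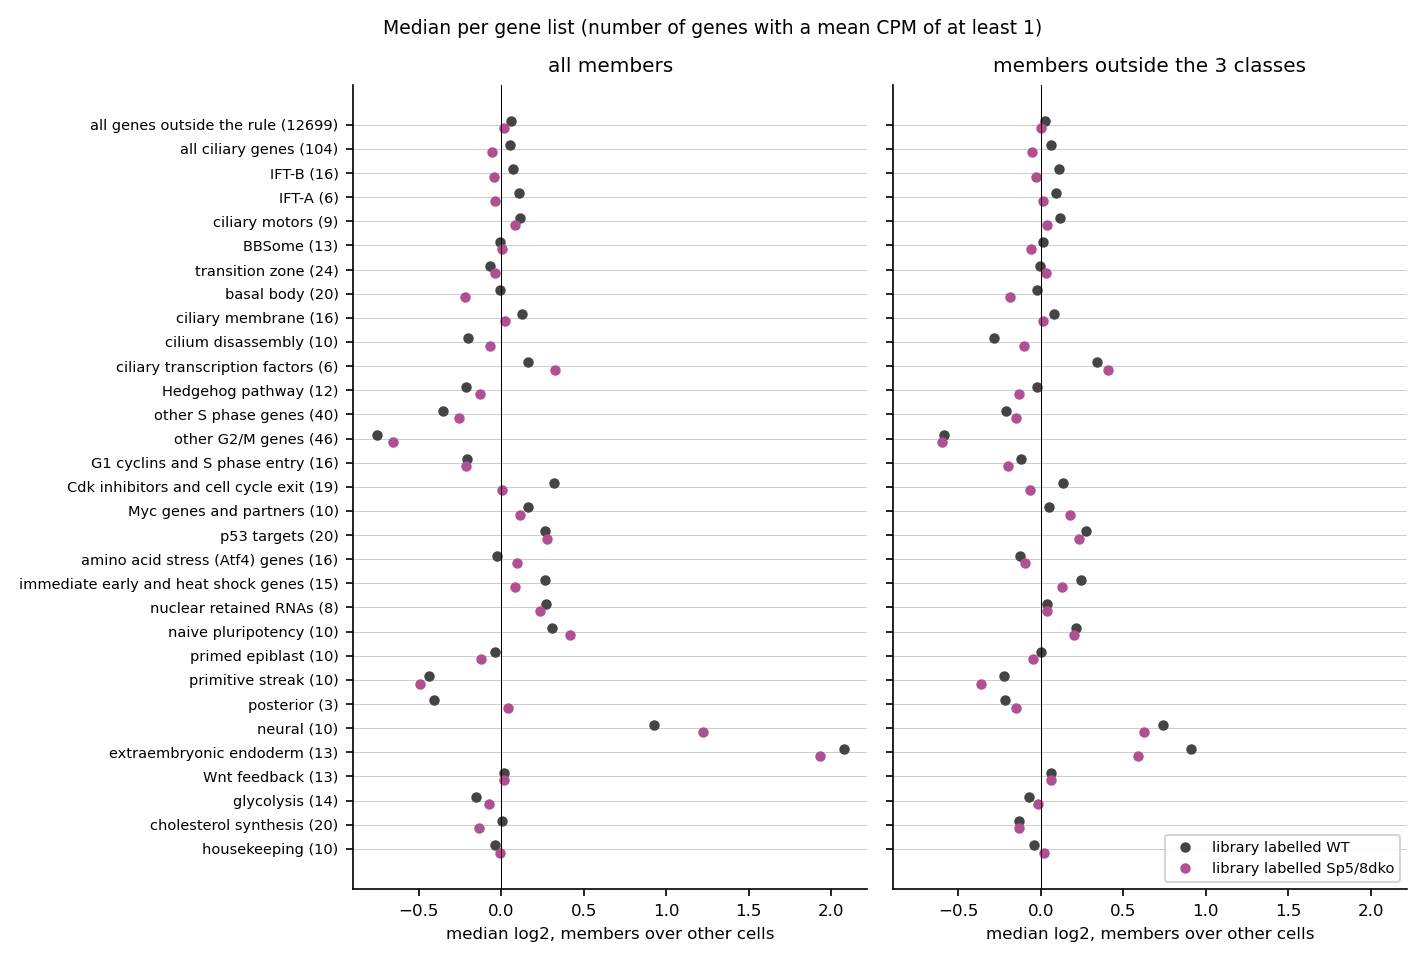
Median log2 ratio of CPM, members over other cells (x axis), for each gene list (y axis, with the number of genes at 1 CPM or more), for all members (left) and for the members outside the classes described in the text (right), 1 point per library. All ciliary genes lie at 0.05 and -0.06, other G2/M genes at -0.75 and -0.66, and extraembryonic endoderm genes at 2.08 and 1.93 in all members and nearer to 0 on the right.

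Transcription factors that switch on ciliary genes were few at this depth. Of 10 listed, 3 reached 10 CPM and none of these was counted. Rfx3, a regulator of ciliary genes, was at 19.0 CPM (13.5 to 25.9) against 9.71 CPM in the library labelled WT (log2 ratio 0.98, 0.47 to 1.43) and at 9.79 CPM (6.27 to 14.6) against 7.88 CPM in the library labelled Sp5/8dko (0.34, -0.34 to 0.90). Rfx3 was under 10 CPM in the other cells of both libraries and reached that mean only through the members of the library labelled WT. Nothing is therefore read from its place among the 3. Its ratios were 0.67 and -0.28 in the remaining members. Of the 15 Hedgehog pathway genes, 6 reached 10 CPM and 1 was lower. This was Smo, the membrane protein that moves into the cilium when Hedgehog binds its receptor, at 45.7 CPM (37.0 to 56.0) against 66.6 CPM and at 46.1 CPM (38.0 to 55.4) against 61.4 CPM. The log2 ratios were -0.53 and -0.41, against -0.09 and -0.19 from the split UMIs and -0.14 and -0.02 after thinning, and it was not counted in the remaining members (-0.47 and -0.26). Gli3, a zinc finger factor processed in the cilium, was at 21.4 against 25.2 CPM and 19.995 against 25.2 CPM, with intervals that held 0.

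The list of cilium disassembly genes held the clearest difference, and it lay in 3 mitotic kinases. Aurka, the Aurora A kinase that acts both in cilium resorption and at spindle poles, was at 38.4 CPM (30.4 to 47.9) against 93.3 CPM in the library labelled WT and at 45.7 CPM (37.6 to 55.0) against 97.1 CPM in the library labelled Sp5/8dko, with log2 ratios of -1.27 and -1.08. Plk1, the polo-like kinase of mitotic entry, was at 30.6 against 79.8 CPM and at 33.5 against 84.6 CPM (-1.37 and -1.33). Nek2, a kinase that parts the centrosomes, was at 5.84 against 22.2 CPM and at 8.98 against 19.6 CPM (-1.87 and -1.10). All 3 are transcripts of G2 and M phase, of the same kind as set B. Kif2a, a microtubule-depolymerising kinesin, was at 79.8 against 92.5 CPM and 78.3 against 88.5 CPM, with intervals that held 0, and the list's median log2 ratio was -0.20 and -0.07. The list's sum was low where set B was low: it was 252 and 260 CPM in the members, 265 and 272 CPM in cells low in B alone, 450 and 446 CPM in cells low in A alone, and 398 and 395 CPM in cells low in neither.

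**Figure D4:**
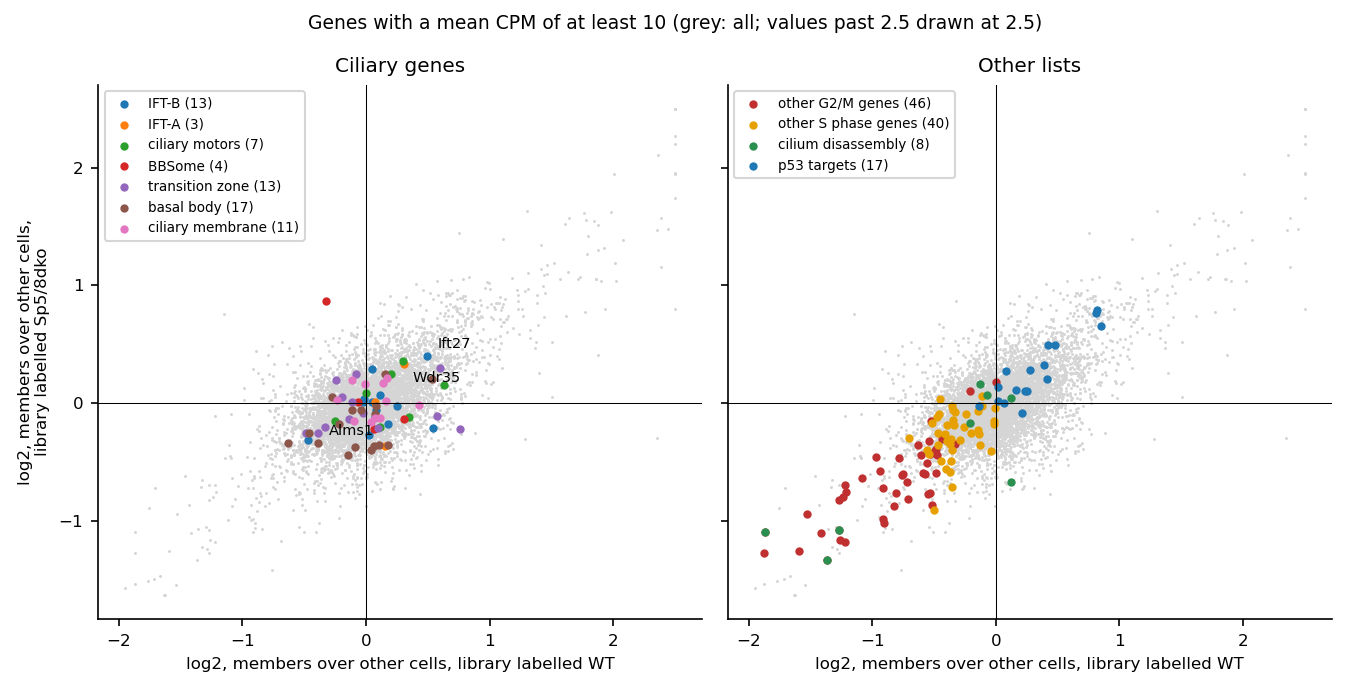
Log2 ratio of CPM, members over other cells, in the library labelled WT (x axis) and in the library labelled Sp5/8dko (y axis), 1 point per gene at 10 CPM or more, grey for all genes and coloured by list, with values past 2.5 drawn at 2.5. The ciliary genes (left) surround 0, with Ift27 at 0.49 and 0.40, while the other G2/M genes (right) lie towards the lower left, down to Nusap1 at -1.87 and -1.27.

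The low level of cycle transcripts extended to genes that the rule did not use. Of 46 other genes of G2 and M phase, 42 were lower, none was higher, and Nuf2, Psrc1, Bora and Gtse1, named here after their values were seen, were not counted. Their sum was 4233 CPM in the members against 6705 CPM in the library labelled WT and 4321 against 6244 CPM in the library labelled Sp5/8dko, with median log2 ratios of -0.75 and -0.66. Of these, 36 were lower in the remaining members, with medians of -0.59 and -0.60. The medians were -0.57 and -0.53 from the split UMIs, -0.33 in both libraries after thinning, and -0.62 and -0.48 with the other cells weighted to the members' depths. These transcripts share cells and timing with set B, so the counts describe the same choice and are not independent of it.

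Several of the lowest genes in the members encode parts of the mitotic spindle. Nusap1 (chr2:119618298-119651244), which bundles microtubules near the chromosomes, was at 22.4 CPM (16.4 to 29.9) against 82.8 CPM and at 35.9 CPM (28.8 to 44.2) against 87.3 CPM, with log2 ratios of -1.87 (-2.34 to -1.47) and -1.27 (-1.60 to -0.98). Prc1 (chr7:80294450-80316259), which crosslinks the microtubules of the spindle midzone, was at 31.6 against 96.3 CPM and at 40.4 against 97.1 CPM (-1.60 and -1.26, and -1.09 and -0.75 with the other cells weighted by depth). Plk1, described above, was also among the lowest of the other G2/M genes. Aspm, a spindle pole protein outside that list, was at 11.2 against 33.3 CPM and at 11.02 against 32.7 CPM, with a log2 ratio of -1.54 in both libraries. Hmmr and Cenpe, a spindle assembly factor and a kinetochore kinesin, had ratios of -1.22 and -1.18 and of -1.26 and -1.17. In Nusap1, Prc1, Aspm, Hmmr and Cenpe the members of both libraries were under the other cells of both libraries.

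Genes of G2 and M phase are widely known to carry the cell cycle homology region (CHR, TTTGAA) and CCAAT boxes near their start sites. The promoters of Nusap1, Prc1 and Plk1 are printed here. These were the most changed counted genes of the other G2/M list, by the smaller in size of their ratios. Motifs played no part in the choice, and the windows differ in whether they hold them. Each window runs from 250 bases before to 50 bases after the annotated start, on the plus strand, from RefSeq GRCm38.p6, with a CHR or a CCAAT box in capitals. Nusap1 is at chr2:119618048-119618347, Prc1 at chr7:80294201-80294500 and Plk1 at chr7:122159185-122159484.
Nusap1: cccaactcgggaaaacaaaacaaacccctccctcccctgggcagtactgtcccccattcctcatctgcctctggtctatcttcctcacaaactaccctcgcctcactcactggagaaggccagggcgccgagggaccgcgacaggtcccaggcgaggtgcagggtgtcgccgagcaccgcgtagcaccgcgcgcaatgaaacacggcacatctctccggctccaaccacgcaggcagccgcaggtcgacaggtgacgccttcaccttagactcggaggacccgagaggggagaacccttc
Prc1: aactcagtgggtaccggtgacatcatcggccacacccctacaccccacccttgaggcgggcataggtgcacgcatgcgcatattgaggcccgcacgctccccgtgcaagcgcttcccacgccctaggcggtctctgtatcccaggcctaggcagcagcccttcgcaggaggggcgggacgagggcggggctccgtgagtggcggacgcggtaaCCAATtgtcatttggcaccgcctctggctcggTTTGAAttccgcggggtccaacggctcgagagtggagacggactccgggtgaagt
Plk1: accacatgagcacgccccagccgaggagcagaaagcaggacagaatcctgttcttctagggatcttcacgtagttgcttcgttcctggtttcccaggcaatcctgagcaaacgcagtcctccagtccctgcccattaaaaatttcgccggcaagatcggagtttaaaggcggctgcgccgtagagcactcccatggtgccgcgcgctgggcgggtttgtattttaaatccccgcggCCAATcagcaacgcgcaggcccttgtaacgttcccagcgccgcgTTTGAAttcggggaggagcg
In the Prc1 window the CCAAT box began at position -37 and the CHR at -5, counted from 0 at the annotated start. In the Plk1 window they began at -14 and +30, and the Nusap1 window held neither. The motifs, searched on both strands, were found in 11.8% (CHR) and 38.3% (CCAAT) of 7891 windows of the genes at 10 CPM or more, and 4.83% held both. Among 288 windows of genes lower in the members these shares were 29.2%, 52.4% and 20.8%, and among 130 windows of genes lower in the remaining members 46.2%, 60.8% and 33.1%. Windows of genes higher in the members held them in 9.36%, 35.2% and 2.22%. For the 42 windows of the other G2/M genes the shares were 66.7%, 76.2% and 54.8%, and for the 119 windows of ciliary genes 15.97%, 53.8% and 9.24%. Windows were matched for 245 of the 309 lower genes, 111 of the 142 lower genes of the remaining members, 38 of the 46 G2/M genes and 97 of the 108 ciliary genes. The other G2/M list supplied 42 of the lower genes and 36 of those lower in the remaining members. Its genes share cells and timing with set B. The motif shares of the lower genes are therefore not independent of the choice of cells. A match is a run of letters and not a bound site.

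Replication genes outside set A showed a smaller difference. Of 40 other S phase genes, 17 were lower and none higher, against 4.01% and 4.93% of all genes. Median log2 ratios were -0.35 and -0.25. In the remaining members 4 were lower, against 1.86% of all genes (medians -0.21 and -0.15). Mcm10, which helps to start replication, was at 33.6 against 49.1 CPM and 38.4 against 51.9 CPM (-0.54 and -0.43). Rrm1, the large subunit of ribonucleotide reductase, was at 69.6 against 94.8 CPM and 63.7 against 89.9 CPM (-0.44 and -0.49), and E2f8, a repressor of the E2F family, at 16.1 against 23.0 CPM and 9.79 against 18.7 CPM (-0.50 and -0.91). The summed level of 67 histone genes was 806 against 877 CPM and 777 against 786 CPM. The S phase sum was 4283 and 4395 CPM in the members, under the sums of the other groups of the split by A and B, where cells low in A alone had 4682 and 4524 CPM and cells low in B alone 6268 and 5914 CPM.

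Of 15 genes of G1 and S phase entry at 10 CPM or more, 1 was higher and 3 were lower in the members. The median log2 ratio was -0.21 in both libraries, with 12 and 14 of the 16 listed genes below 0, and 2 were lower in the remaining members (medians -0.12 and -0.20). Ccnd2, a D-type cyclin that responds to growth signals in G1, was at 233 CPM (213 to 255) against 159 CPM in the library labelled WT and at 246 CPM (227 to 267) against 173 CPM in the library labelled Sp5/8dko, with log2 ratios of 0.55 and 0.51 (0.51 and 0.50 in the remaining members, 0.20 and 0.18 after thinning). Ccnd1, another D-type cyclin, was at 265 against 260 CPM and at 188 against 222 CPM (0.03 and -0.24). Ccne1, the cyclin of the G1 to S transition, was at 102 against 137 CPM and at 109 against 142 CPM (-0.43 and -0.38), and its ratios after thinning were -0.09 and 0.00. Ccnd2 was thus the D-type cyclin that stood apart in both libraries.

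Inhibitors of the cycle and genes of cell cycle exit were higher in part. Of 14 genes at 10 CPM or more, 5 were higher and 1 was lower, against 4.93% and 4.01% of all genes. Median log2 ratios were 0.32 and 0.00. In the remaining members 3 were higher, against 1.6% of all genes. Btg2, an antiproliferative gene that is also a target of p53, was at 348 CPM (323 to 375) against 198 CPM and at 263 CPM (243 to 284) against 155 CPM (0.81 and 0.77, and 0.67 and 0.59 in the remaining members). Cdkn1c, the imprinted Cdk inhibitor p57, was at 143 CPM (127 to 160) against 18.1 CPM in the library labelled WT and at 28.6 CPM (22.3 to 36.1) against 6.25 CPM in the library labelled Sp5/8dko, with log2 ratios of 2.98 and 2.20. A single cell held 94 of its 293 UMIs in the members of the library labelled WT and 39 of 70 in those of the library labelled Sp5/8dko, and without these cells the ratios were 2.43 and 1.05. Cdkn2a, which encodes p16 and p19ARF, was at 27.7 against 13.0 CPM and 25.3 against 9.72 CPM (1.11 and 1.39, and 0.49 and 0.62 in the remaining members). Cdkn1a, the inhibitor p21, was at 366 against 361 CPM and 395 against 359 CPM (0.02 and 0.14). The inhibitors thus differed among themselves, from Cdkn1c to Cdkn1a.

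Of 17 p53 target genes at 10 CPM or more, 6 were higher and none lower, against 4.93% and 4.01% of all genes. Median log2 ratios were 0.27 and 0.28. In the remaining members 4 were higher, against 1.6% of all genes (medians 0.27 and 0.23). Mdm2, the ubiquitin ligase that p53 induces and that degrades it, was at 234 CPM (214 to 256) against 133 CPM in the library labelled WT and at 208 CPM (190 to 227) against 120 CPM in the library labelled Sp5/8dko. Its log2 ratios were 0.82 (0.69 to 0.95) and 0.79 (0.66 to 0.92) in all members, 0.80 and 0.81 in the remaining members, 0.59 and 0.63 from the split UMIs and 0.48 and 0.60 after thinning. Perp, a membrane protein of p53-dependent death, was at 37.9 against 21.2 CPM and 28.2 against 18.0 CPM (0.85 and 0.66). Bax, a pore-forming protein of apoptosis, was at 687 against 680 CPM and 686 against 677 CPM (0.02 in both libraries), and Ccng1 was at 468 against 392 CPM and 398 against 372 CPM (0.25 and 0.10). The list was therefore not uniform: Mdm2 and Btg2 were well above the other cells and Bax was level with them.

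Of 11 immediate early and heat shock genes at 10 CPM or more, 3 were higher, against 4.93% of all genes. All 3 encode subunits of AP-1, a factor that answers growth signals and stress. Jun was at 70.5 against 35.4 CPM and 59.6 against 29.5 CPM (1.00 and 1.02), Jund at 270 against 177 CPM and 274 against 192 CPM (0.61 and 0.52), and Fos at 61.8 against 49.3 CPM and 49.8 against 40.6 CPM (0.33 and 0.30, but -0.02 from the split UMIs in the library labelled WT). All 3 were also higher in the remaining members. Of 11 genes of the amino acid stress response, 2 were higher and 2 lower, against 4.93% and 4.01% of all genes. Ddit4, which damps mTORC1, was at 217 against 159 CPM and 187 against 124 CPM (0.45 and 0.60, and 0.55 and 0.62 in the remaining members). Ddit3, the stress factor CHOP, was at 19.5 against 5.49 CPM and 17.5 against 6.08 CPM (1.84 and 1.54), and in the remaining members its ratios of 0.81 and 0.33 had intervals that held 0. Ddit3, too, reached 10 CPM only through the members. No Myc gene or partner of 7 was counted.

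Of 7 nuclear-retained RNAs at 10 CPM or more, 3 were higher in the members. Malat1, a long non-coding RNA of nuclear speckles, was at 5591 against 2518 CPM and 3773 against 2260 CPM (1.15 and 0.74). Its ratios were 0.60 and 0.23 in the remaining members. Neat1, the RNA that builds paraspeckles, was at 26.3 CPM (19.7 to 34.3) against 4.04 CPM and 18.4 CPM (13.4 to 24.6) against 2.65 CPM (2.71 and 2.81, and 2.42 and 2.07 in the remaining members). Neat1 reached a mean of 10 CPM only through the members, and in the remaining members it fell under that minimum and was not counted for that reason. The sum of the list was 6570 against 3409 CPM and 4780 against 3293 CPM, and Malat1 was the larger part of each sum. In the remaining members none of the list was counted, Malat1 included. The median log2 ratio there was 0.04 in both libraries, and the log2 ratios of the sum were 0.46 (0.43 to 0.49) and 0.12 (0.09 to 0.16).

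Of 7 primitive streak genes at 10 CPM or more, 4 were lower and none higher, against 4.01% and 4.93% of all genes. Median log2 ratios were -0.43 and -0.49. In the remaining members 3 were lower, against 1.86% of all genes (medians -0.22 and -0.36). Eomes, a T-box factor of mesoderm and endoderm, was at 57.9 CPM (48.0 to 69.3) against 91.9 CPM in the library labelled WT and 121 CPM (107 to 135) against 187 CPM in the library labelled Sp5/8dko (-0.66 and -0.63, and -0.35 and -0.43 in the remaining members). Fgf8, a growth factor of the streak, was at 53.03 against 93.5 CPM and 108 against 154 CPM (-0.81 and -0.51), and Mixl1, a homeobox gene of the streak, at 3.41 against 12.3 CPM and 8.98 against 17.0 CPM (-1.76 and -0.89). The other cells of the library labelled Sp5/8dko were above those of the library labelled WT in all 3 genes, and so were the members. With the other cells weighted to the members' depths the medians were -0.30 and -0.34.

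Pluripotency genes gave a mixed pattern. Of 5 naive pluripotency genes at 10 CPM or more, 3 were higher and 1 was lower, and of these only Tdh, a threonine dehydrogenase, was still counted in the remaining members (higher, 0.48 and 0.28). Nanog, a core factor of pluripotency, was at 76.4 against 117 CPM and 100 against 130 CPM (-0.61 and -0.37, and -0.44 and -0.23 in the remaining members). Zfp42, a marker of the naive state, was at 25.3 CPM in the members of both libraries against 17.2 and 17.4 CPM (0.57 and 0.55, but -0.25 in the library labelled WT after thinning). Klf4 was at 13.6 against 8.05 CPM and 13.5 against 8.17 CPM (0.78 and 0.74). It reached the minimum of 10 CPM only through the members, and its ratio was -0.05 in the remaining members of the library labelled WT. Of 10 genes of the primed epiblast, Pou3f1, a POU factor of epiblast and neural cells, was higher at 200 against 80.9 CPM and 143 against 73.4 CPM (1.31 and 0.97, and 0.83 and 0.74 in the remaining members). Dnmt3b, a DNA methyltransferase, was lower at 469 against 729 CPM and 590 against 775 CPM (-0.63 and -0.39), and so was Fgf5, a growth factor of the epiblast, at 42.3 against 62.6 CPM and 68.6 against 91.9 CPM (-0.56 and -0.42). In the remaining members neither was counted, with ratios of -0.41 and -0.23 for Dnmt3b and -0.40 and -0.25 for Fgf5. Of the 8 Wnt feedback genes at 10 CPM or more none was counted, nor was either of the posterior genes.

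The members were not 1 kind of cell. After the values were seen, cells of both libraries were put into classes: those with under 1% mitochondrial UMIs, then those with at least 3 of 7 neuron genes, then those with at least 20 UMIs in 10000 from extraembryonic endoderm genes. The classes are descriptions and were not tested. Cells with under 1% mitochondrial UMIs made up 41 of the members (15.1%, 11.1% to 19.96%) and 3.71% of the other cells in the library labelled WT, and 45 of the members (12.4%, 9.19% to 16.2%) and 3.48% of the other cells in the library labelled Sp5/8dko. Cells with neuron genes were 27 of the members (9.96%) against 0.225% of the other cells, and 23 (6.34%) against 0.137%. Cells with endoderm genes were 5 and 6 of the members. The remaining 198 and 289 members were 73.1% and 79.6% of all.
Most cells with neuron genes in these libraries were members: 27 of 46 (58.7%, 43.2% to 73.0%) and 23 of 37 (62.2%, 44.8% to 77.5%). The genes that define the class were Ebf3, Insm1, Elavl4, Elavl3, Nhlh1, Onecut2 and Srrm4, transcription factors and RNA-binding proteins of newly formed neurons. Genes that did not define it, listed after their values were seen, were Atoh1, a factor of neuronal progenitors, at 179 and 131 CPM against 0.0642 and 0.0641 CPM in the other cells outside the classes. Dcx, a microtubule protein of migrating neurons, was at 154 and 160 CPM against 1.04 and 1.15 CPM, and Tubb3, a neuronal tubulin, at 4466 and 5280 CPM against 93.3 and 101 CPM. Epcam, an epithelial adhesion protein, was at 59.6 and 14.6 CPM in these members against 466 and 438 CPM, and Pou5f1, the core pluripotency factor, at 49.7 and 80.1 CPM against 659 and 679 CPM. Several such genes were among the highest of all members, with Ebf3 at 28.2 against 0.315 CPM and 15.1 against 0.242 CPM, Insm1 at 28.2 against 0.568 CPM and 12.2 against 0.378 CPM, and Ncam1 at 26.3 against 6.57 CPM and 19.2 against 5.01 CPM. In the remaining members the log2 ratios of Ncam1 were 0.70 and 0.58, with intervals that held 0. Ebf3, Insm1 and Ncam1 were under 10 CPM in the other cells of both libraries. They reached that mean only through the members, so nothing is read from their rank. Ebf3 and Insm1 also define the class. No name of a cell type is given to this class, and its origin was not tested.

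The members with neuron genes had the highest ciliary sum of the classes in both libraries. Their ciliary sum was 3000 CPM (2766 to 3249) in the library labelled WT and 2855 CPM (2579 to 3152) in the library labelled Sp5/8dko, against 2584 and 2527 CPM in the other cells. Within it, the ciliary motors were at 358 CPM (280 to 450) and 284 CPM (202 to 388), against 185 and 178 CPM. The remaining members had ciliary sums of 2626 CPM (2548 to 2706) and 2475 CPM (2408 to 2544), and the members of low mitochondrial share had 2270 CPM (2058 to 2499) and 1976 CPM (1786 to 2181). In both libraries these 3 classes had the same order, and their intervals did not overlap. The neuron-gene members were also the lowest in other G2/M genes, at 1505 and 1449 CPM against 6705 and 6244 CPM in the other cells, and the highest in nuclear-retained RNAs, at 16641 and 17428 CPM. Their primitive streak genes summed to 14.9 and 51.0 CPM, from 3 and 7 UMIs.

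**Figure D5:**
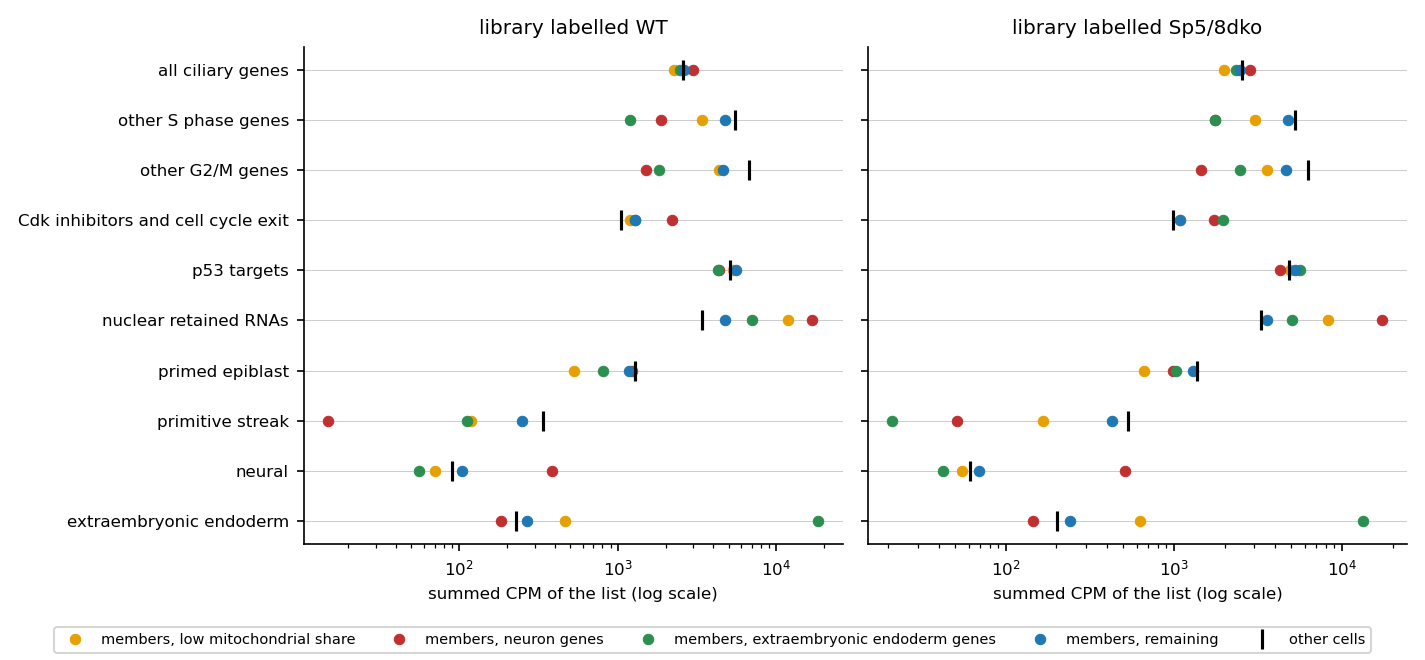
Summed CPM of gene lists (x axis, log scale) in the classes of members (points) and in the other cells (bars), 1 panel per library. The neuron-gene members have the highest ciliary sums, 3000 and 2855 CPM, and the lowest sums of other G2/M genes, 1505 and 1449 CPM.

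The members with under 1% mitochondrial UMIs were the shallowest, with medians of 3878 and 4168 UMIs per cell, 0.198% and 0.290% mitochondrial UMIs and 32.5% and 32.8% ribosomal protein UMIs. Of all such cells in the libraries, 41 of 354 (11.6%) and 45 of 401 (11.2%) were members. Malat1 was at 0 in 17 of these 41 members and 13 of these 45, and in 220 of 313 and 278 of 356 cells of this kind that were not members. Ranked by the smaller of the ratios in the libraries, the genes highest in these members were Pmaip1, the p53-induced death gene Noxa, at 76.0 and 80.2 CPM against 7.21 and 7.39 CPM, and Ddit3 at 54.3 and 110 CPM against 5.41 and 5.97 CPM. Both rest on few UMIs, 14 and 16 for Pmaip1 and 10 and 22 for Ddit3. Both were also under 10 CPM in the cells they were set against, so nothing is read from their rank. Mitochondrial genes were lowest, as the class requires.

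The 5 and 6 extraembryonic endoderm-like members held 18313 and 13349 CPM from the 14 marker genes, against 228 and 202 CPM in the other cells. The marker genes define the class, so these sums follow from the choice of the cells. The same holds for the Sox17 and Ttr values below, since both are marker genes. The endoderm-like members were 5 of 16 (31.3%) and 6 of 17 (35.3%) of such cells. Sox17, an endoderm factor, was at 585 and 359 CPM, Ttr, which carries thyroid hormone, at 1003 and 232 CPM, and Srgn at 920 and 486 CPM. All 5 endoderm genes at 10 CPM or more, 1 of which passed that minimum only through the members, were higher in the whole of the members, with a list sum of 591 against 228 CPM and 520 against 202 CPM. In the remaining members 1 of them, Apoe, a lipid carrier of many cell types, was higher (log2 ratios 0.45 and 0.59). The list still stood above the other cells there, with median log2 ratios of 0.91 and 0.59. The log2 ratios of its sum were 0.37 (0.23 to 0.51) and 0.39 (0.26 to 0.52).

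The lowest genes of the remaining members were Prc1, Nusap1, Plk1, Cenpe, Hmmr and Aurka, with log2 ratios between -0.98 and -1.70 across both libraries. Among their highest, listed after their values were seen, were Cldn5, a tight junction protein, at 12.9 against 3.20 CPM and 9.19 against 2.50 CPM, and Mfap4, an extracellular matrix protein, at 22.0 against 7.99 CPM and 16.5 against 7.42 CPM. Cldn5 and Mfap4 were under 10 CPM in the other cells of both libraries. They could reach that minimum only through the members, so nothing is read from their place. Peg10, an imprinted gene, was at 163 against 35.6 CPM in the library labelled WT and at 79.8 against 44.6 CPM in the library labelled Sp5/8dko. Of the genes counted in all members, 249 were counted in the same direction in the remaining members, 116 higher and 133 lower. Their median depth was 7994 and 7077 UMIs, against 10812 and 8842 in the other cells outside the classes.

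Ratios between the libraries have no replicate check. Median log2 ratios of the library labelled Sp5/8dko over the library labelled WT, over all genes at 1 CPM or more, were -0.06 in the members and -0.03 in the other cells, and over the ciliary genes -0.12 and -0.06. Sp5 had the highest ratio among the members, 2.00 (1.79 to 2.22), against 2.14 in the other cells, and Mixl1 followed with 1.33. Grb10, an imprinted adaptor of insulin signalling, had -2.30 in the members and -2.73 in the other cells. Cdkn1c had -2.31 (-2.72 to -1.94) in the members and -1.54 in the other cells. Nefm, a neurofilament gene, was at 59.4 CPM (49.3 to 70.9) in the members labelled WT and 11.4 CPM (7.59 to 16.5) in the members labelled Sp5/8dko, against 11.7 and 14.3 CPM in the other cells. Neurod1, a neuronal transcription factor, was at 35.5 and 9.39 CPM in the members, against 5.80 and 5.52 CPM. It reached a mean of 10 CPM only through the members of the library labelled WT, so nothing is read from its place. Without the classes, Nefm in the members over other cells had log2 ratios of 0.38 and -0.75, and Neurod1 of 0.79 and -0.40. With 1 library for each genotype, a difference of genotype and a difference between cultures or libraries cannot be told apart.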

How the data were processed

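Transcripts of single cells were measured in 2 libraries with the 10x Genomics 3′ chemistry, version 3.1, on a NovaSeq X Plus. The authors deposited unscaled UMI counts for every gene in each of 6794880 barcodes, so no cells had been removed. Per the labels' protocols the reads were processed with Cell Ranger 8.0.1; the submitters' processing notes name STAR 2.7.9a with STARsolo, Seurat 5.1.0 and mm10, with no role given. The labels state 9238 and 11190 cells with medians of 5333 and 5398 genes, above the 3275 and 2884 found in the kept cells; the reason for the difference was not tested. Barcodes with at least 2500 UMIs numbered 8772 and 10613, and 1 with under 1000 genes and 64 and 26 with over 10% mitochondrial UMIs were removed.

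UMIs were summed over the members and over the other cells of each library and scaled to the sum's total as CPM, with 0.5 added for log2 ratios (Python 3.11.15, scipy 1.17.1). The method was tested on simulated data. Doublets, scored against simulated pairs of cells, were kept, and 606 and 897 cells of highest score were removed as an alternative. The alternatives also used edgeR 4.0.16 (TMM factors) and DESeq2 1.42.0 (size factors), with no test by either. The members and gene lists were chosen with earlier results of these data known. Named genes were Sp5, Sp8, the 15 highest and 15 lowest genes, every counted ciliary gene, the 3 most changed and 3 most abundant genes of each list, and the 5 highest and 5 lowest between the members of both libraries; exceptions are marked. Genes of neighbouring annotations were not separated further.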

Additional observations from a re-analysis of the deposited data

How the results depend on the processing

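The members' share of kept cells moved with the rule. It was 2.18% and 2.30% at the 20th percentile, 4.27% and 4.99% at the 30th, 6.68% and 6.43% after thinning to 2500 UMIs, and 2.75% and 3.08% of cells with at least 5000 UMIs. After thinning, every cell tied at a limit passed it. The median ciliary log2 ratio in the library labelled WT was -0.032 from the split UMIs, -0.033 with TMM factors and 0.25 with 5 added to each sum, and with 5 added it was 0.16 in the library labelled Sp5/8dko; adding 5 raises ratios of the smaller sums by construction. The 380 higher genes became 114 after thinning, 251 with a mitochondrial limit of 5%, 134 from the split UMIs, 171 without neuron-gene and endoderm cells, 122 without all classes, 605 from 1 CPM, 224 with a log2 limit of 0.5, and 886 or 602 where the library labelled WT or the library labelled Sp5/8dko alone had to pass. The 309 lower genes became 197 at the 30th percentile, 73 after thinning, 203 in cells of at least 5000 UMIs, 102 from the split UMIs, 193 with other cells weighted to the members' depths, 568 with TMM factors, 142 without all classes, 80 with a limit of 0.5, and 762 or 671 in either library alone. Where fewer cells, UMIs or genes entered, smaller counts follow in part from construction; for the other changes the cause was not tested.

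List medians near 0 took either sign across the alternatives, among them those of the ciliary genes (-0.033 to 0.25) and the Hedgehog pathway (-0.34 to 0.12) in the library labelled WT and of the BBSome (-0.24 to 0.36) in the other. Other signs turned as follows. The median of all genes became -0.026, -0.0028 and -0.0067 (TMM, DESeq2, at least 10 CPM) in the library labelled WT. In the library labelled Sp5/8dko it became -0.041, -0.0034 and -0.025 under the same settings, -0.0087 without neuron-gene and endoderm cells and -0.0007 without all classes. There, nuclear-retained RNAs became -0.22 (mitochondrial limit 5%) and -0.075 (at least 10 CPM), and the primed epiblast list 0.0043 after thinning. Without neuron-gene and endoderm cells, and without all classes, values were -0.10 and -0.40 for Neurod1, -2.33 and -2.22 for Elavl4, -0.29 and -0.24 for Col4a1, -1.37 and -1.24 for Ctsh, -0.48 and -0.36 for Dab2 and -1.27 and -1.16 for Spink1 in the library labelled Sp5/8dko. In the library labelled WT they were -0.041 and -0.11 for Snhg11, -0.081 and -0.052 for Klf4 and -0.10 and -0.031 for Col4a1. After thinning Klf4 was -0.015 and Zfp42 -0.25 in that library, and Ccne1 was 0.0047 in the other. The split UMIs gave 0.19 for Cdk2, -0.023 for Fos and -0.33 for Ift27 in the library labelled WT. The cause of these changes was not tested. No paired analysis was possible because no result comes from a test; members and other cells were compared within each library throughout.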

Other observations

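Other genes among the highest in the members rested on single cells. Spink1, a secreted protease inhibitor, had 29 of its 50 member UMIs in 1 cell of the library labelled WT and 33 of 61 in 1 cell of the library labelled Sp5/8dko. Rhox6, a homeobox gene of the reproductive cluster on the X chromosome, had 31 of 41 and 50 of 59, and Krt19, a keratin of simple epithelia, 25 of 43 and 35 of 50. Fabp3, a fatty acid binding protein, was at 180 against 34.9 CPM and 135 against 31.5 CPM in all members, with log2 ratios of 0.88 and 0.51 in the remaining members. In the metabolic lists 1 of 13 glycolysis genes and 1 of 20 cholesterol synthesis genes were lower, against 4.01% of all genes. Nothing is read from these counts. Median log2 ratios were -0.15 and -0.08 for glycolysis and 0.00 and -0.13 for cholesterol synthesis.

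Among cells with at least 4000 UMIs, those with a share of chromosome 6 transcripts under 0.8 times the median were counted. In the library labelled WT they were 57 of 239 members (23.8%, 18.6% to 29.8%) and 20.6% of the other cells. In the library labelled Sp5/8dko they were 86 of 327 members (26.3%, 21.6% to 31.4%) and 18.2% of the other cells. For chromosome 11 the shares were 17.6% of members (13.0% to 23.0%) and 17.9% of other cells in the library labelled WT. They were 8.56% (5.77% to 12.1%) and 5.75% in the library labelled Sp5/8dko. The members were shallower, and the share of a chromosome varies more in shallow cells. Depth was not matched here, and its part was not tested.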
